A study of Mus musculus with 24 samples.

Results

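Atf3 and 9 other AP-1 genes, here called partner genes, were followed through differentiation in mouse embryonic stem cells with and without Atf3. The genes were chosen by name: Atf3, the Jun family genes Jun, Junb and Jund, the Fos family genes Fos, Fosb, Fosl1 and Fosl2, and the smaller basic leucine zipper genes Batf3 and Jdp2. All 10 were found once each among the 53465 genes of the expression table, and all 10 passed the filter on low values.

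AP-1 is a family of transcription factor dimers built from basic leucine zipper proteins. Jun proteins pair with each other, with Fos proteins or with ATF and BATF proteins, whereas Fos proteins need a Jun partner to bind DNA. Atf3 and Jdp2 encode factors best known as repressors at AP-1 and cyclic AMP response elements, and Atf3, Jun, Junb, Fos and Fosb are classic early genes that serum, growth factors and stress switch on through MAP kinases.

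The libraries came from Atf3 knockout (KO) and wild-type (WT) cells, taken on day 0 and after 3, 6 or 9 days of differentiation, with 3 libraries in each of the 8 groups. All groups share the same stem-cell culture, which held serum, leukaemia inhibitory factor, the GSK3 inhibitor CHIR99021 and the MEK inhibitor PD0325901. The sources used here do not give the differentiation medium, the edited part of Atf3 or the number of KO clones. The labels name each group of genotype and day as its own batch, so batch and group cannot be told apart. The labels do not tie replicates to separate cultures, so the p-values measure a spread between libraries that may be technical only. These are bulk RNA values, so fewer cells that express a gene and less of its RNA per cell cannot be told apart.

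Depth, as reads recovered from the steps of the deposited values, was 7855623 to 25274429 reads per library. A share of 4.42% to 45.6% of these reads lay in 3 rRNA-type genes, highest in WT day 6 replicate 3, which kept 4272090 reads outside them. The 7 naive stem-cell markers summed to 898 to 1056 FPKM in KO and 886 to 1023 FPKM in WT libraries at day 0, and to at most 102 FPKM in any library from day 3 on. Levels are FPKM, fragments per kilobase of transcript scaled by library, which can be compared between genes. Differences are fold changes on the log2(FPKM + 1) scale from limma, called at a Benjamini-Hochberg adjusted p under 0.05 over 15159 genes. That scale understates changes of genes near or under 1 FPKM, such as Batf3 and, in KO cells, Atf3.

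The members lie on 7 chromosomes of mm10, and 2 pairs are close neighbours. Batf3 (plus strand, 191097847 to 191108945) and Atf3 (minus strand, 191170296 to 191218039) are 61.35 kb apart on chromosome 1 and run towards each other, with 1 protein-coding gene between them. Fos (85473890 to 85477273) and Jdp2 (85599027 to 85639878) share the plus strand of chromosome 12, with 121.8 kb and no protein-coding gene between them. Strand is not stated for the authors' counting, and 5 members share exon bases with a gene on the opposite strand, so their levels are less certain. Jund shares 877 of its 1668 exon bases with the antisense gene Gm11175, which read 49.5 to 191 FPKM. Fosl1 shares 1163 of 2033 bases with Ccdc85b, Junb 173 of 2301 with Prdx2, Jun 232 of 3189 with Junos and Jdp2 165 of 2148 with Gm47863.

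Promoters are shown because several of these genes rose along the same course and their proteins bind cyclic AMP response and AP-1 elements. RefSeq promoter windows of build GRCm38.p6, from 250 bases before to 50 after a start site, were matched to 9 members and gave 11 windows. The full cyclic AMP response element TGACGTCA was in none of the 11 windows and in 1.79% of all 32851 windows. The AP-1 site TGANTCA (0 of 11, 7.808% of all) and the CArG box bound by serum response factor (0 of 11, 1.629% of all) were not in these windows either. Sites farther than 250 bases before a start site were not searched. Each of these motifs reads the same on both strands, so the search covered both. A pair of looser forms was searched after the first results were seen. The form TGACNTCA, which includes the full element, was searched on the gene's own strand alone. It was in 1 of 11 windows, that of Jun, and in 5.568% of all. The shorter element TGACGT, or ACGTCA on the other strand, was in 3 of 11 windows and in 7.513% of all, and overlaps the full element. The matches stand in capitals in the stretches below, each read 5′ to 3′ on the gene's own strand. Those of Atf3 and Jdp2 lie inside the gene spans given above, before start sites within the gene and not at its outer end.
Atf3, chr1:191183334-191183381, minus strand: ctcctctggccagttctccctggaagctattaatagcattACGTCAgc
Jun, chr4:95052223-95052307, minus strand: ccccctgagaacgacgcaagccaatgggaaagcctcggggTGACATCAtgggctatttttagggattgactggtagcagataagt
Fos, chr12:85473784-85473871, plus strand: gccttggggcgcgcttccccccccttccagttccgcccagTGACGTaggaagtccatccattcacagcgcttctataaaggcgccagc
Jdp2, chr12:85599262-85599349, plus strand: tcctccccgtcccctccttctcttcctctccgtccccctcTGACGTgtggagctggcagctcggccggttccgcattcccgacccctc

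Atf3, the targeted gene, was low in KO libraries at every day and climbed in WT libraries. At day 0 it read 0.217, 0.134 and 0.165 FPKM in KO libraries, from 4 to 6 reads each, against 1.38, 3.06 and 1.15 FPKM in WT libraries. At day 3 the values were 0.248, 0.447 and 0.611 FPKM in KO libraries and 5.03, 15.8 and 10.5 FPKM in WT libraries. At both days the KO libraries lay entirely below the WT libraries. At day 6 Atf3 read 0.343, 0.578 and 4.17 FPKM in KO replicates 1, 2 and 3, against 12.7, 23.99 and 10.9 FPKM in WT libraries. At day 9 it read 0.355, 0.714 and 0.532 FPKM in KO libraries and 13.7, 15.0 and 16.2 FPKM in WT libraries. The groups did not overlap at these days either, although KO day 6 replicate 3, with 181 reads for Atf3, stood well above the other KO libraries. Only 1 of the 12 KO libraries reached 1 FPKM, so Atf3 passed the filter on low values through its WT libraries.

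The KO mean of Atf3 was 9.24%, 4.17%, 10.7% and 3.57% of the WT mean at days 0, 3, 6 and 9. The KO minus WT fold change of -1.23 at day 0 did not pass the test (limma, adjusted p = 1, unadjusted p = 0.00665). Atf3 fell by 2.88 at day 3, by 2.84 at day 6 and by 3.38 at day 9, with limma adjusted p-values of 0.0107, 8.13e-04 and 5.87e-05. A two-sided exact permutation test of 3 KO against 3 WT values gave p = 0.1 at each day, the smallest it allows. The day 3 call was lost after rescaling to TPM (adjusted p = 0.852), in a fit of the 6 day 3 libraries by themselves (0.622) and with a replicate block within every day (0.752), but held with a replicate block at day 3 alone (0.0139). It was also lost without any 1 of 5 day 3 libraries, namely the 3 KO libraries and WT replicates 2 and 3 (adjusted p up to 0.153), and the day 6 call was lost with TPM (0.170) and in a fit of the day 6 libraries by themselves (0.799).

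**Figure D1:**
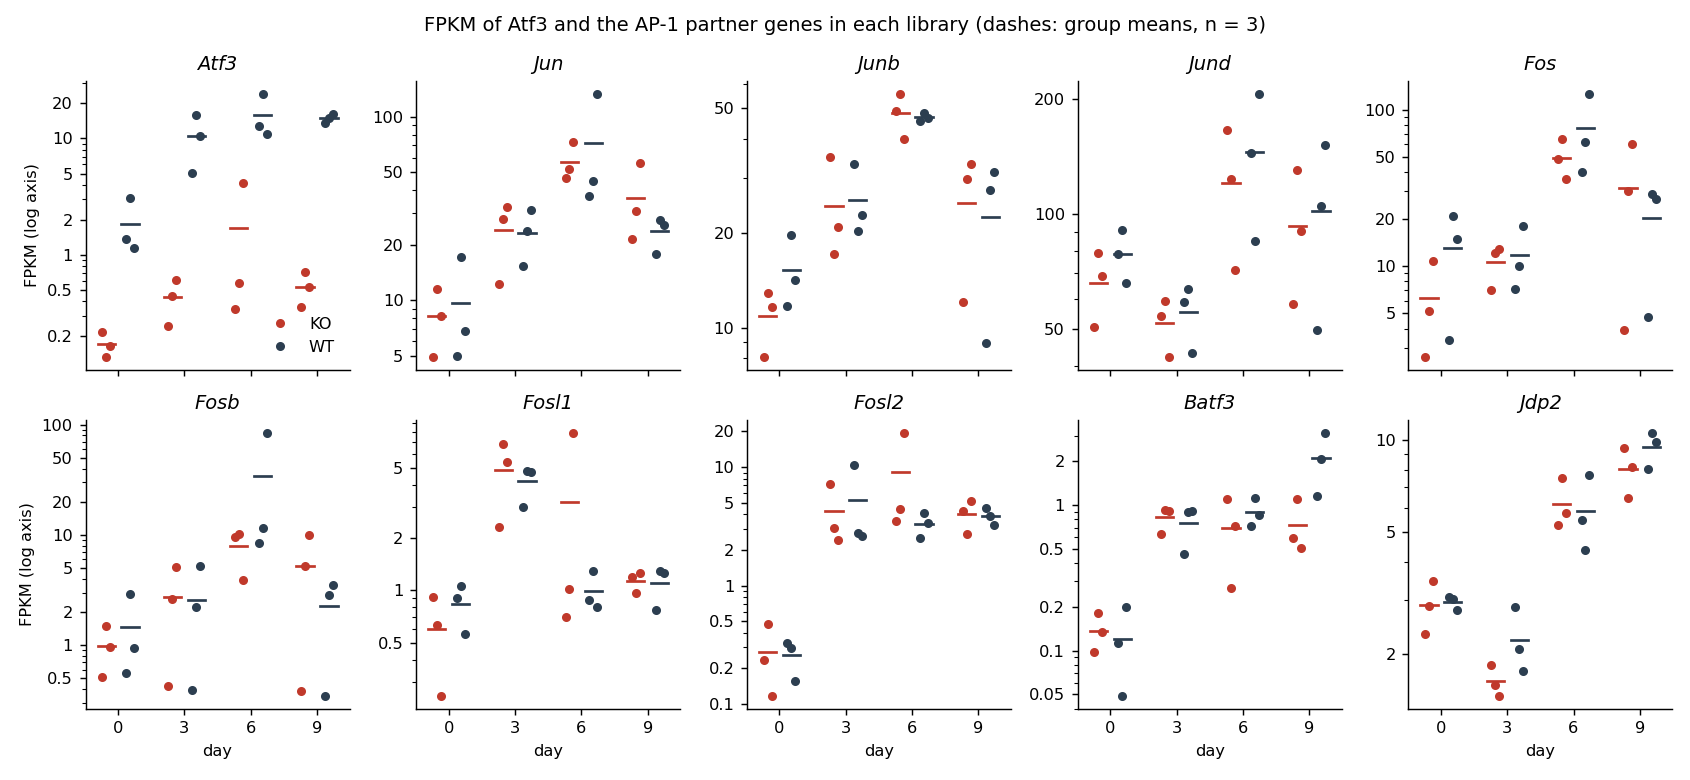
FPKM of the 10 genes (log axis) in each of 24 libraries at days 0, 3, 6 and 9, with KO to the left of WT and a dash at each group mean (n = 3). Atf3 separates KO from WT at all 4 days, from 0.134 to 4.17 FPKM in KO and from 1.15 to 23.99 FPKM in WT libraries, while the other genes overlap except Batf3 at day 9.

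No partner gene passed the test between KO and WT at any day, and an unadjusted limma p under 0.05 was reached by 1 of the 9, Batf3, at day 9 and in the mean of days. Of all 15159 genes tested, 789 and 578 reached that unadjusted p in these comparisons. Of the 10 members, 0 were called at day 0, where 0.0132% of all genes tested were called. By unadjusted limma p-values under 0.05 that count was 1, Atf3, against 168 of all 15159 genes, and by voom it was 0. At day 3, 1 member was called, Atf3, against 0.0132% of all genes. Likewise 1 member, Atf3, was called at day 6 (0.726% of all genes), at day 9 (0.963%) and for the mean of the 4 days (0.198%), where its fold change was -2.58 (limma, adjusted p = 7.19e-07). Values of KO and WT libraries did not overlap for 1 member, Atf3, at days 0, 3 and 6, and for 2 at day 9, against 7.51%, 3.79%, 7.92% and 10.5% of all genes. For the mean of the 4 days the 9 partner genes had fold changes between -0.27 (Fos, 95% interval -1.08 to 0.55) and 0.19 (Fosl2, -0.29 to 0.67), all with a limma adjusted p of 0.996. The intervals were narrowest for Jdp2 (-0.31 to 0.08) and Batf3 (-0.44 to -0.01). Changes of about 1 unit on the log2(FPKM + 1) scale in these means lie outside the intervals for every partner gene but Fos and Fosb. For genes near or under 1 FPKM, such as Batf3 and Fosl1, that unit stands for a larger ratio of FPKM, so the intervals bound them less. Intervals of single days were wider and reached past 1 unit for several partner genes, such as Fosl2 at day 6 (-0.07 to 1.85) and Jun at day 9 (-0.51 to 1.52).

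**Figure D2:**
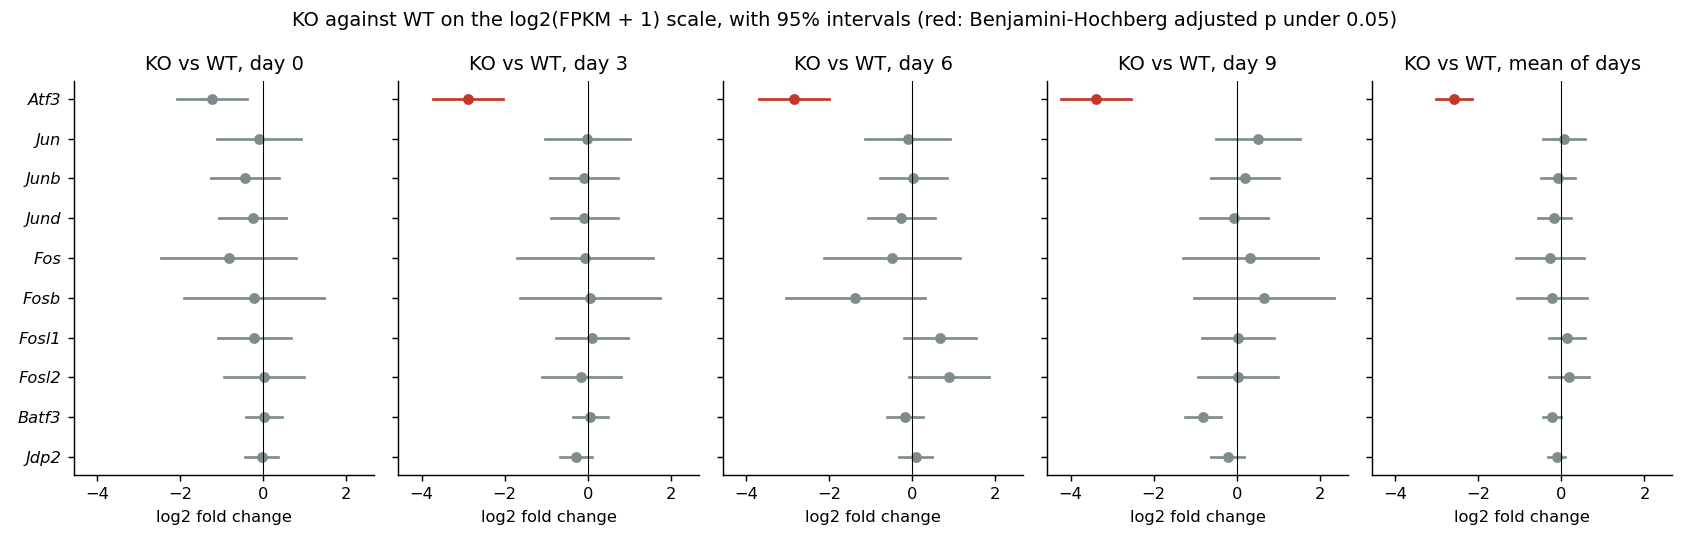
Fold change of KO against WT on the log2(FPKM + 1) scale at each of 4 days and for their mean, with 95% intervals from limma. Atf3 at days 3, 6 and 9 and in the mean is red (adjusted p under 0.05), and the widest intervals belong to Fos and Fosb.

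Batf3, whose protein pairs with Jun proteins and is known for its role in dendritic cells, came nearest to a call. At day 9 it read 0.591, 1.10 and 0.509 FPKM in KO libraries (21 to 32 reads) and 1.15, 2.06 and 3.12 FPKM in WT libraries (64 to 74 reads). The 3 KO libraries lay below the 3 WT libraries, though the highest KO and the lowest WT value were close. The fold change was -0.81 (95% interval -1.24 to -0.38, adjusted p = 0.0794 in limma). With equal library sums outside the rRNA-type genes the call was made (adjusted p = 0.0225), as it was without WT day 9 replicate 1 (adjusted p = 0.0116). These were the only calls, 1 of 9 other settings and 1 of 24 fits with 1 library left out. The limma adjusted p reached 0.740 in those settings and 0.634 in those fits, where the fold change was -1.05 to -0.58.

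Markers of some cell types differed between KO and WT at day 9, when Batf3 came nearest to a call. The 6 trophoblast markers summed to 14.7 to 29.7 FPKM in KO and 59.0 to 108 FPKM in WT libraries at day 9, with 0 higher and 2 of 6 lower in KO (1 lower by voom). The 4 cardiac muscle markers summed to 129 to 425 FPKM in KO and 43.4 to 50.3 FPKM in WT libraries, with 3 of 4 higher in KO. The 6 endothelial markers summed to 26.7 to 30.3 FPKM in KO and 10.6 to 14.5 FPKM in WT libraries, with 3 of 5 tested higher in KO (2 by voom). The 5 macrophage and leucocyte markers overlapped, at 5.48 to 8.81 FPKM in KO and 8.05 to 12.0 FPKM in WT libraries, and 0 of the 2 tested were called. Of all genes 0.963% were called at day 9. No marker of these lists was at 0 in all 3 libraries of a day 9 group. Their part in the Batf3 result was not tested. Within 500 kb of Atf3, 16 genes including Batf3 were tested and 0 were called at any of the 4 days, where 0.0132% to 0.963% of all genes were called. At day 9 the 15 genes other than Batf3 had fold changes from -0.27 to 0.45.

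The Jun family genes encode the partners that Fos proteins need. Jund, the family member that most cell types express steadily, had the highest mean of the 10 genes in all 8 groups. At day 0 it read 50.6 to 79.2 FPKM in KO and 66.2 to 91.0 FPKM in WT libraries, while no other member exceeded 12.9 FPKM in KO or 20.8 FPKM in WT libraries. Its values stayed apart from those of all other members at days 0 and 3 in both genotypes and at day 9 in WT, and overlapped with another member at day 6 in both genotypes and at day 9 in KO. Jund held 77.9% ± 1.6 and 76.5% ± 5.7 of the summed Jun family FPKM at day 0 in KO and WT cells (SD, n = 3). At day 3 its share was 51.5% ± 6.5 in KO and 52.8% ± 7.5 in WT cells, and Jun and Junb each held a larger share than at day 0 in both genotypes.

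Jun and Junb, which growth signals induce, climbed to day 6. Mean Jun FPKM was 8.23 ± 3.31, 24.1 ± 10.5, 57.1 ± 14.1 and 36.2 ± 17.9 in KO cells and 9.64 ± 6.57, 23.4 ± 7.87, 71.7 ± 53.4 and 23.8 ± 5.21 in WT cells at days 0, 3, 6 and 9 (SD, n = 3). At day 6 Jun read 46.2, 52.0 and 72.9 FPKM in KO libraries and 36.9, 45.0 and 133 FPKM in WT libraries, all above every day 0 value of the same genotype. Junb, which can also restrain Jun, read 39.9 to 55.6 FPKM in KO and 45.6 to 48.3 FPKM in WT libraries at day 6, against 8.09 to 12.9 FPKM in KO and 11.7 to 19.8 FPKM in WT libraries at day 0. At day 6 the WT values of Junb lay within the KO range. Jund was not called against day 0 at any day in either genotype with the values as deposited. It read 167, 124 and 71.3 FPKM in KO libraries and 145, 85.2 and 207 FPKM in WT libraries at day 6, where its fold change against day 0 was 0.80 in both genotypes (limma, adjusted p = 0.103 in KO and 0.0944 in WT). Under TPM Jund was called in KO cells at day 6 (1.26, adjusted p = 0.0121) and day 9 (1.33, 0.00538) and in WT cells at day 9 (1.24, 0.00838). The day 6 rise was also called in KO cells without KO day 6 replicate 3 (1.13, 0.0273) and in WT cells without WT day 6 replicate 2 (1.14, 0.0269). At day 9 Jund held 60.7% ± 9.3 of the summed family FPKM in KO and 67.7% ± 4.2 in WT cells (SD, n = 3).

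Of the Fos family genes, Fos had the highest mean FPKM in all 8 groups, with 72.4% ± 14.7 of the summed Fos family FPKM in KO and 79.5% ± 12.7 in WT cells at day 0 (SD, n = 3). At day 3 its share was 46.9% ± 4.8 in KO and 47.8% ± 12.7 in WT cells. Summed Fos family FPKM was 22.5 ± 4.81 in KO and 23.8 ± 5.93 in WT cells at day 3, and 69.6 ± 9.36 in KO and 115 ± 86.6 in WT cells at day 6. Fos itself read 35.8 to 64.4 FPKM in KO and 40.1 to 125 FPKM in WT libraries at day 6, against 2.65 to 10.9 FPKM in KO and 3.38 to 20.8 FPKM in WT libraries at day 0. Below Jund, the next 3 genes by mean FPKM were Jun, Junb and Fos in all 8 groups, and the values of neighbours among these 3 overlapped in every group. Atf3 stood in the fifth place in WT cells at day 9, apart from Jdp2 below it, and in the last place in KO cells at day 9, where it overlapped with Batf3.

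**Figure D3:**
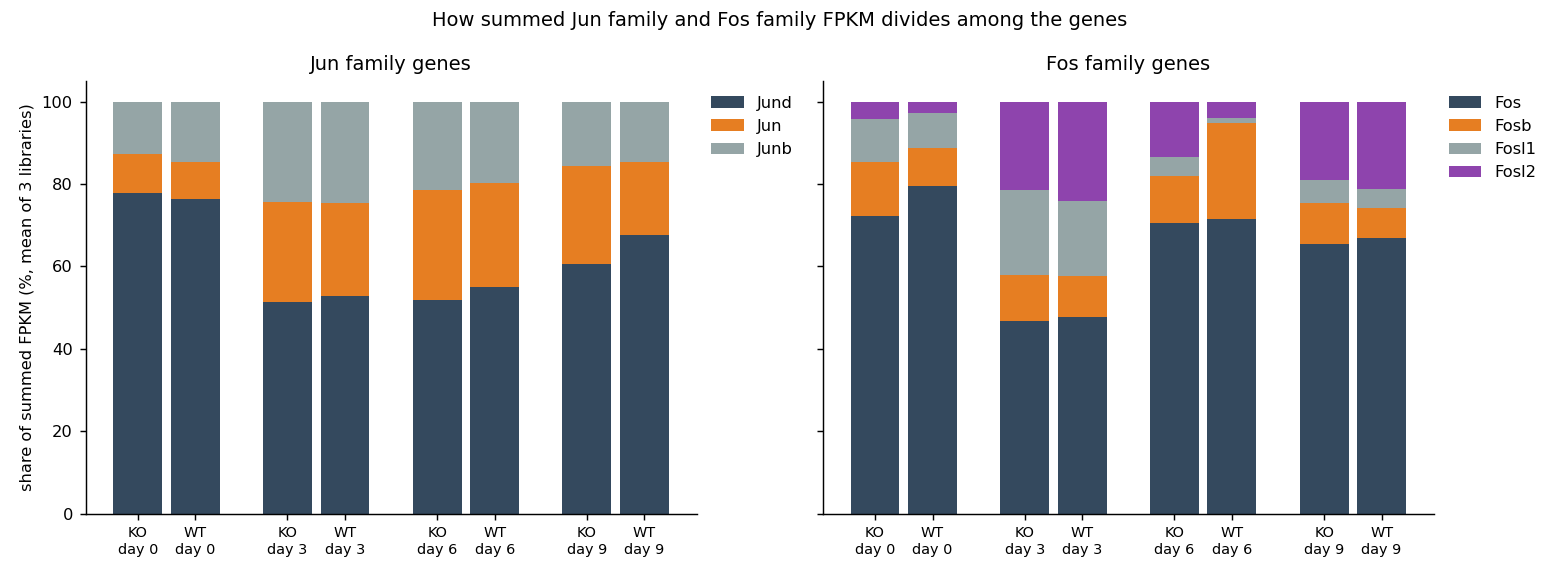
Share of summed Jun family FPKM (left) and summed Fos family FPKM (right) held by each gene, as the mean of 3 libraries, for KO and WT at each day. At day 3 Jund holds 51.5% (KO) and 52.8% (WT) of its family and Fos 46.9% (KO) and 47.8% (WT) of its own, both less than at day 0.

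Fosl1 and Fosl2, the Fos-related genes without the strong activation domains of Fos and Fosb, held a larger mean share of the summed Fos family FPKM at day 3 than at day 0. At day 3 Fosl1 held 20.8% ± 7.0 in KO and 18.1% ± 5.5 in WT cells (SD, n = 3). Its day 0 shares, 2.05% to 21.2% in KO and 3.39% to 17.4% in WT libraries, overlapped those of day 3 in both genotypes. The Fosl2 share at day 3 was 42.5%, 12.3% and 9.49% in KO and 49.9%, 13.9% and 8.59% in WT replicates 1, 2 and 3, so replicate 1 was far above the others in both genotypes. Replicate 1 was also highest for the Fosl2 share at day 9, with 43.5% in KO and 43.6% in WT cells. Fosl1 read 2.32 to 6.85 FPKM in KO and 2.98 to 4.83 FPKM in WT libraries at day 3, against 0.250 to 0.912 FPKM in KO and 0.560 to 1.06 FPKM in WT libraries at day 0. Its mean was 1.13 ± 0.151 FPKM in KO and 1.11 ± 0.291 FPKM in WT cells at day 9 (SD, n = 3), and all 3 WT values of day 9 lay under all WT values of day 3. No library of days 3, 6 or 9 read under 2.44 FPKM for Fosl2, against 0.118 to 0.471 FPKM in KO and 0.157 to 0.326 FPKM in WT libraries at day 0. In both genotypes replicate 1 held the highest Fosl2 value of day 3, 7.20 FPKM in KO and 10.5 FPKM in WT cells.

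Against day 0, every member called had risen except Jdp2 in KO cells at day 3. At day 3, 6 members were called in KO cells (28.1% of all genes were): Jun, Junb, Fosl1, Fosl2 and Batf3 rose and Jdp2 fell. In WT cells 4 rose at day 3 (25.9% of all genes called), namely Atf3, Fosl1, Fosl2 and Batf3. At day 6, 7 members rose in KO cells (43.7% of all genes called) and 8 in WT cells (47.8%), with Jun, Junb, Fos, Fosb, Fosl2, Batf3 and Jdp2 in both and Atf3 in WT. At day 9, 5 rose in KO cells (45.1% of all genes called), namely Jun, Junb, Fosl2, Batf3 and Jdp2, and 5 in WT cells (46%), with Atf3 in place of Junb.

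The sizes of these changes are given on the log2(FPKM + 1) scale. At day 6 Jun rose by 2.69 in KO and 2.70 in WT cells (limma, adjusted p = 1.32e-04 and 1.23e-04). Fos rose by 2.93 in KO and 2.58 in WT cells (adjusted p = 0.00449 and 0.0102). The WT call of Fos was lost without WT day 6 replicate 3 (2.14, adjusted p = 0.0534), without WT day 0 replicate 1 (1.89, 0.0717) and without replicate 3 of both genotypes at day 6 (0.0511). Fosl2 rose by 2.65 in KO and 1.77 in WT cells (adjusted p = 8.90e-05 and 0.00364). Fosl1 rose by 1.80 in KO and 1.48 in WT cells at day 3 (adjusted p = 0.00257 and 0.0114) and was not called at days 6 and 9. In KO cells the fold changes of Atf3 were 0.29, 0.92 and 0.38 at days 3, 6 and 9, with none called (limma adjusted p = 0.658, 0.0726 and 0.478). The day 6 value in KO cells was called with a pseudocount of 0.1 (2.01, adjusted p = 0.00952), with voom (2.53, 0.0252), and without KO day 6 replicate 1 (1.29, 0.0208) or 2 (1.17, 0.0479), and was 0.31 without KO day 6 replicate 3. The day 9 value in KO cells was called in a fit of the compared groups by themselves (0.0255). In WT cells Atf3 rose by 1.94, 2.54 and 2.54 at these days (adjusted p = 0.00114, 3.44e-05 and 3.00e-05). Batf3 averaged 0.137 ± 0.0420, 0.826 ± 0.165, 0.695 ± 0.414 and 0.734 ± 0.321 FPKM in KO cells at days 0, 3, 6 and 9 (SD, n = 3). In WT cells it averaged 0.121 ± 0.0756, 0.753 ± 0.254, 0.896 ± 0.201 and 2.11 ± 0.986 FPKM. It rose by 0.59 in KO and 1.43 in WT cells at day 9 (limma, adjusted p = 0.0242 and 9.46e-06), from 2 to 4 reads per KO library and 1 to 4 reads per WT library at day 0.

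Jdp2 had the only fall against day 0 that passed the test, and that call depended on the scaling and on single libraries. Its protein pairs with Jun proteins and with ATF2 and recruits repressors. In KO libraries it read 1.84, 1.59 and 1.47 FPKM at day 3, against 2.32, 2.86 and 3.48 FPKM at day 0. In WT libraries it read 2.84, 2.08 and 1.76 FPKM at day 3, against 3.07, 3.03 and 2.78 FPKM at day 0. The day 3 values lay under all day 0 values in KO cells and overlapped them in WT cells. Jdp2 fell by 0.56 at day 3 in KO cells (limma, adjusted p = 0.0327) and its WT value was -0.31 (adjusted p = 0.256). The KO call was lost under TPM (adjusted p = 0.557), with equal sums outside the rRNA-type genes (0.114), and without the unnumbered KO day 0 library (0.0748), KO day 0 replicate 2 (0.147), KO day 3 replicate 2 (0.0726) or KO day 3 replicate 3 (0.110). The difference between the genotypes was not called (interaction -0.25, adjusted p = 1). At day 9 Jdp2 reached 6.47 to 9.44 FPKM in KO and 8.04 to 10.5 FPKM in WT libraries, its highest level, with rises of 1.21 in KO and 1.40 in WT cells (adjusted p = 2.16e-05 and 3.94e-06).

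**Figure D4:**
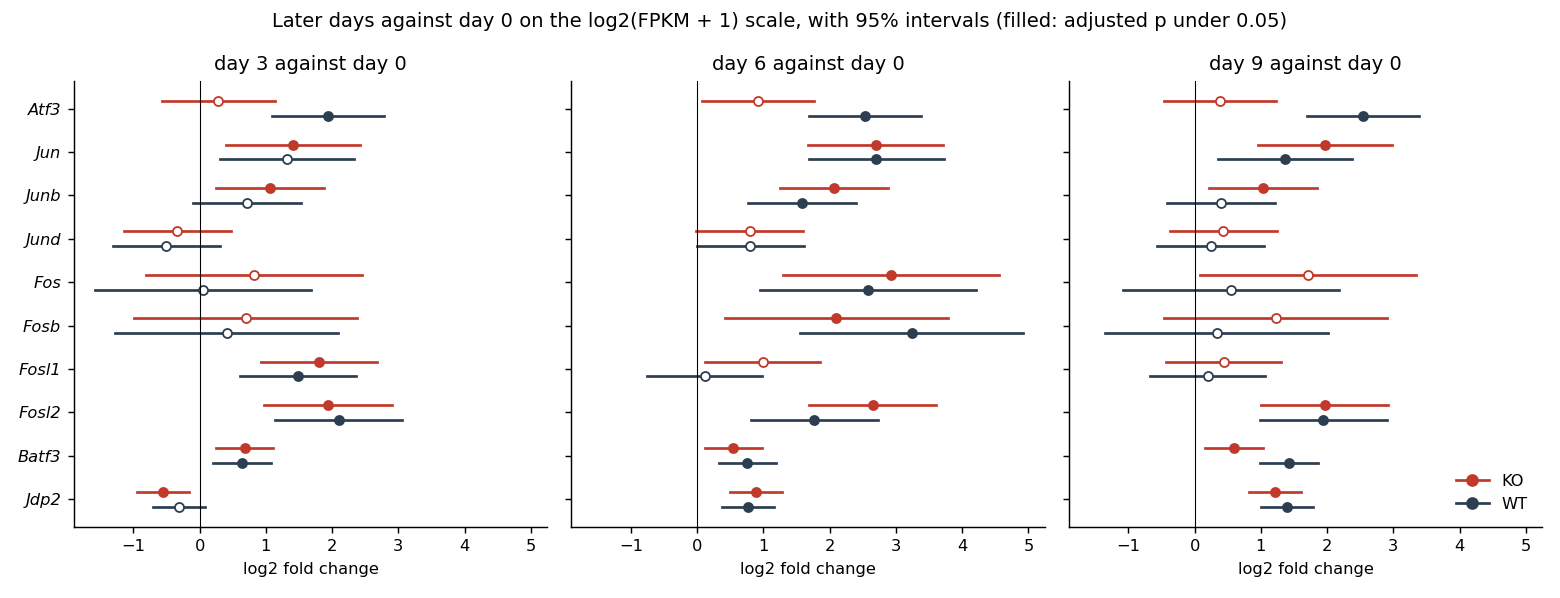
Fold change of days 3, 6 and 9 against day 0 on the log2(FPKM + 1) scale, in KO (upper, red) and WT (lower, dark) cells, with 95% intervals and filled points where the limma adjusted p was under 0.05. Atf3 is filled in WT alone, and Jun, Fosl2, Batf3 and Jdp2 are filled in both genotypes at days 6 and 9.

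Some of these counts rested on single libraries or on the scaling. The KO count of 6 at day 3 was 3 without KO day 0 replicate 1 or KO day 3 replicate 2, and 2 without KO day 0 replicate 2 or KO day 3 replicate 3, with Fosl1 and Fosl2 called in all 4 cases. The Junb rise in KO cells at day 3 was close to the threshold (adjusted p = 0.0483). It held in 8 of 24 fits with 1 library left out (adjusted p 0.0153 to 0.213) and was lost with no filter (0.0915), under TPM (0.184) and with voom (0.0549). The KO count of 5 at day 9 was 3 without KO day 0 replicate 1, KO day 0 replicate 2 or KO day 9 replicate 2. In KO cells at day 6 the calls of Fosb and Batf3 were lost without any 1 of the 3 KO day 0 libraries, and that of Fosb also without KO day 6 replicate 2. Both calls held in 19 of 24 fits with 1 library left out. In other settings that of Fosb held in 6 of 8 and that of Batf3 in 4 of 7. In WT cells the day 3 call of Batf3 held in 20 of 24 such fits and was lost, among others, without WT day 0 replicate 1 or WT day 3 replicate 2 or 3. The day 9 call of Jun in WT cells was lost without WT day 0 replicate 1 or 3 or WT day 9 replicate 2 or 3. Under TPM scaling the counts were 1 at day 3 and 5 at day 6 in WT cells and 8 at day 9 in KO cells. No call of a member against day 0 changed direction in any setting run.

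The genotypes were also compared by interaction, the KO minus WT difference of a later day less that of day 0. Of the 10 members 0 were called at day 3 (0.0132% of all genes called), 0 at day 6 (0.112%) and 0 at day 9 (0.264%). By unadjusted limma p-values under 0.05, Atf3 was counted at each of the 3 days and Batf3 at day 9, and voom called 0 members. Of all 15159 genes, 113, 648 and 464 reached that unadjusted p at days 3, 6 and 9. Atf3 had interactions of -1.65, -1.61 and -2.15 at days 3, 6 and 9 (adjusted p = 1, 0.754 and 0.223). Without KO day 6 replicate 3, the day 6 and day 9 interactions of Atf3 passed the test, with limma adjusted p-values of 0.0341 and 0.0277. For the partner genes the interactions lay between -1.14 (Fosb at day 6) and 1.16 (Fos at day 9), with standard errors of 1.14 and 1.11.

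Fos and Fosb, 2 early genes with short-lived transcripts, were among the most variable genes between libraries of 1 group. Their residual SD on the log2(FPKM + 1) scale was 1.06 for Fos and 1.10 for Fosb, which placed them at percentiles 99.8 and 99.86 of all genes tested, where the median gene had 0.295. Jun (0.651) and Fosl2 (0.616) followed at percentiles 96.1 and 94.8, while Jdp2 (0.220) and Batf3 (0.255) lay at percentiles 25.3 and 37.4. Under TPM Fos and Fosb were at percentiles 98.9 and 98.5, but Jun was at 78.3, below Fosl2, Atf3, Fosl1 and Junb. At day 9 Fosb read 0.382, 5.24 and 9.95 FPKM in KO replicates 1, 2 and 3 and 0.349, 2.87 and 3.55 FPKM in WT replicates 1, 2 and 3. Fos at that day read 3.92, 30.4 and 60.0 FPKM in KO libraries and 4.74, 28.9 and 27.0 FPKM in WT libraries. Replicate 1 was low for both genes in both genotypes.

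The low value in replicate 1 recurred. Jun was lowest in replicate 1 in 8 of 8 groups, and Fos and Fosb in 7 of 8, all but KO day 6. The other members were lowest in replicate 1 in 2 (Fosl2) to 5 (Atf3, Junb and Batf3) of 8 groups. The share over all genes was not counted. At day 3 same-numbered KO and WT libraries deviated together over all genes (r = 0.655, 0.614 and 0.599). In both genotypes replicate 1 of day 3 was lowest in Atf3, Jun, Fos, Fosb, Fosl1 and Batf3 and highest in Junb, Fosl2 and Jdp2. Fosb read 0.428, 2.63 and 5.08 FPKM in KO and 0.389, 2.22 and 5.19 FPKM in WT replicates 1, 2 and 3 at that day. Replicate 1 is a number in the labels and not a stated batch, and its part in these values was not tested.

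**Figure D5:**
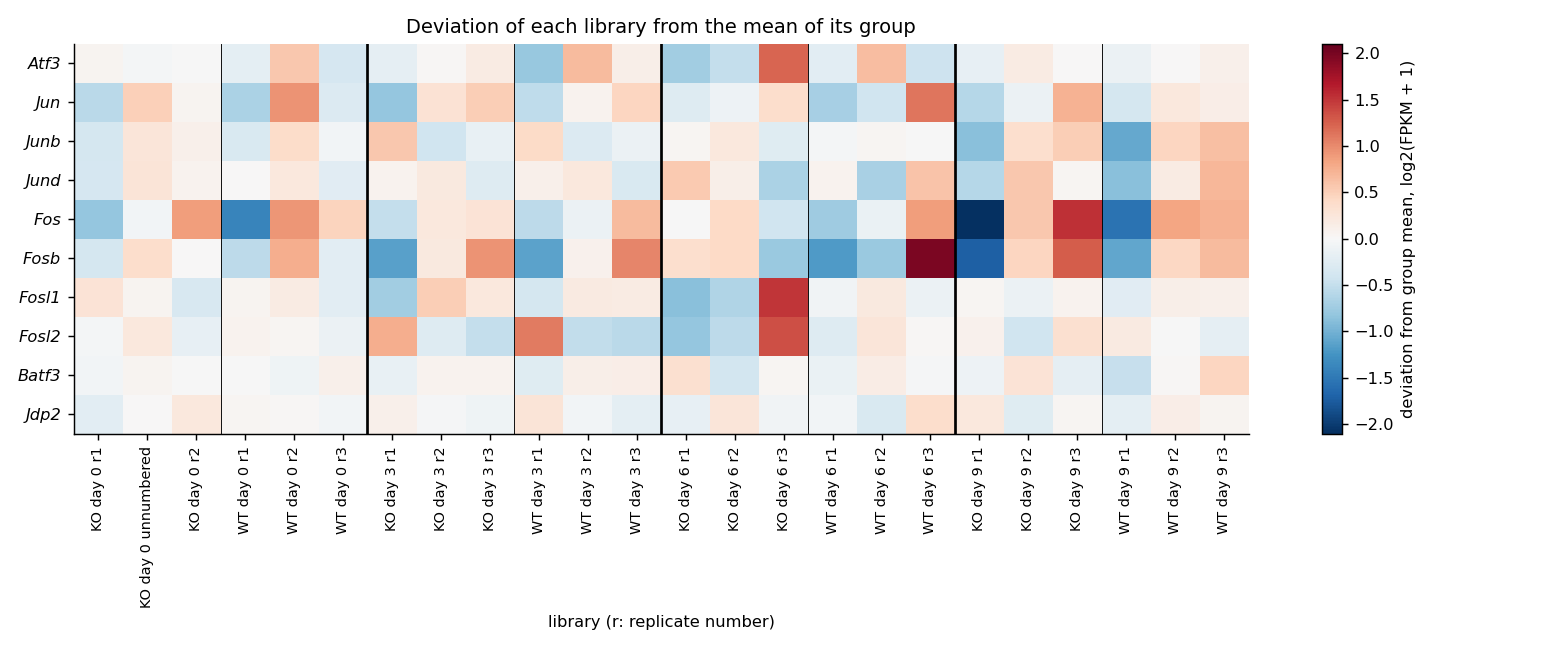
Deviation of each library from the mean of its group on the log2(FPKM + 1) scale (blue lower, red higher) for 10 genes and 24 libraries, with KO before WT at each day. Replicate 1 is blue for Jun in all 8 groups, Fosb is deepest red in WT day 6 replicate 3, and Fosl1, Fosl2 and Atf3 are red together in KO day 6 replicate 3.

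A pair of day 6 libraries stood apart, 1 in each genotype. KO day 6 replicate 3 read 19.3 FPKM for Fosl2 and 7.91 FPKM for Fosl1, against 3.53 and 4.41 FPKM for Fosl2 and 0.703 and 1.02 FPKM for Fosl1 in KO replicates 1 and 2. The 3 WT libraries read 2.54 to 4.08 FPKM for Fosl2 and 0.806 to 1.28 FPKM for Fosl1. The same library was the highest KO library for Atf3. Its 6 red blood cell markers summed to 163 FPKM, against 2063 and 2498 FPKM in the other KO day 6 libraries and 23.3 to 86.0 FPKM in WT day 6 libraries, and no marker of the list was at 0 in a day 6 group. Its 6 visceral and parietal endoderm markers summed to 65.8 FPKM, against 557 and 492 FPKM in KO replicates 1 and 2 and 72.9 to 210 FPKM in WT day 6 libraries. The part of these cell types in its Fosl1 and Fosl2 values was not tested.

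WT day 6 replicate 3, the library with the highest share of rRNA-type reads, read 83.9 FPKM for Fosb, 133 FPKM for Jun and 125 FPKM for Fos. The other WT day 6 libraries read 8.42 and 11.5 FPKM for Fosb, 36.9 and 45.0 FPKM for Jun and 40.1 and 61.6 FPKM for Fos. Junb, at 46.6 FPKM in that library, lay between the other 2. At day 6 the KO minus WT fold changes were 0.89 for Fosl2, 0.66 for Fosl1 and -1.37 for Fosb (limma, adjusted p = 0.528, 0.590 and 0.575). Without replicate 3 of both genotypes they were 0.22, -0.16 and 0.01, so those of Fosl1 and Fosb changed sign.

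Deviations from the group means showed which members moved together between libraries of the same group. Across 24 libraries the Pearson correlation of these deviations was 0.837 for Jun and Fosb, 0.828 for Fos and Fosb, 0.716 for Jun and Fos and 0.686 for Junb and Fos. Without the day 6 replicates 3 of both genotypes these were 0.858, 0.843, 0.743 and 0.699. Atf3 and Fosl1 correlated at 0.797, and at 0.682 without those libraries, whereas Fosb and Fosl2 had the lowest value, -0.440. The points share library depth and scaling, so these correlations are descriptions.

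Levels were also compared with those of all genes that reached a mean of 5 FPKM in a group, 7595 in all and predicted genes left out. Across the 24 libraries the 3 genes most like Fos were members, Fosb (Pearson r = 0.903), Junb (0.836) and Jun (0.835), followed by Chkb and Eapp. The gene most like Jun was Junos (0.976), which overlaps it on the opposite strand, then Vps37b (0.897), Eif4g3, Ssbp3 and Phf21a. Fosl2 was most like Ptpn21 (0.957), Baiap2l1 (0.936), Rhoq, Tubb6 and Rnf128. Over the 12 WT libraries Atf3 was most like Dusp8 (0.957), Ociad1 (0.951), Dusp5 (0.932), Prickle1 (0.931) and Dab2 (0.928). The libraries share the course of differentiation and their scaling, so these correlations are descriptions.

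Other genes of the pathway were read from 4 lists chosen for their known roles, with differences on the log2(FPKM + 1) scale. Earlier results of these data were known when the lists were drawn up, so their calls are descriptions. Of 38 other basic leucine zipper genes 35 were tested, and 1, Cebpa, was called between KO and WT, lower at day 9, where 0.963% of all genes were called. Cebpa, a myeloid, fat and liver factor, averaged 0.544 ± 0.146 FPKM in KO and 1.40 ± 0.0821 FPKM in WT cells (SD, n = 3, fold change -0.64, limma adjusted p = 0.0354). The list's median fold change was 0.04 at day 9, against 0.01 over all genes. Of 25 tested genes of the kinases and factors that act upstream of AP-1, among them MAP kinases and serum response factor, 0 were called between KO and WT at any day. Of all genes 0.0132% to 0.963% were called at these days. By unadjusted limma p-values under 0.05 the counts were 0, 0, 4 and 2 at days 0, 3, 6 and 9, against 168, 121, 1516 and 789 of all 15159 genes. Voom called 0 of the list, and its median lay between -0.08 at day 3 and 0.15 at day 6.

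Of 30 tested immediate early genes 1 was called between KO and WT, Dusp2, which encodes a nuclear phosphatase of MAP kinases. It averaged 5.78 ± 0.335 FPKM in KO and 1.63 ± 0.215 FPKM in WT cells at day 6 (SD, n = 3, fold change 1.37, limma adjusted p = 1.95e-04). At day 9 it averaged 2.84 ± 0.633 FPKM in KO and 0.930 ± 0.386 FPKM in WT cells (fold change 1.00, adjusted p = 0.00310). The list's median was 0.26 at day 6 and 0.12 at day 9, against 0.02 and 0.01 over all genes, of which 0.726% and 0.963% were called. Of the 30, 7 rose and 7 fell in KO cells at day 3 against day 0, where 28.1% of all genes were called. In WT cells 7 rose and 9 fell, where 25.9% of all genes were called.

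Of 34 genes known as AP-1 targets in other cells, such as matrix proteases and adhesion genes, 26 were tested. Between KO and WT 1 was called, Cd44, a hyaluronan receptor, at 9.77 ± 3.93 FPKM in KO and 3.32 ± 2.35 FPKM in WT cells at day 6 (SD, n = 3, fold change 1.42, limma adjusted p = 0.0414). With voom on recovered reads 0 genes of the list were called at day 6. The list's median at day 6 was 0.29, against 0.02 over all genes, of which 0.726% were called. Against day 0, 14 of the 26 rose and 5 fell in KO cells at day 6, with a median of 1.08, where 43.7% of all genes were called. In WT cells 13 rose and 6 fell, with a median of 0.69, where 47.8% of all genes were called. At day 6, 4 of 5 tested red blood cell markers were higher and 2 of 5 tested mesoderm markers lower in KO than in WT cells in limma, where 0.726% of all genes were called. By voom 2 red blood cell and 0 mesoderm markers were called. Their part in the Dusp2 and Cd44 values was not tested.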

How the data were processed

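RNA was sequenced from 24 libraries, 3 per genotype and day. The authors deposited FPKM values per gene. The submitters' processing notes name build mm10, the aligner HISAT2 (2.2.1), the counter featureCounts (2.0.1), the read trimmer Trimmomatic (0.39), the quality tool FastQC (0.11.9), and R (4.1.0) with DESeq2 (1.30.1). The sources used here do not say how FPKM was computed.

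With GENCODE vM21 exon lengths, values fell on steps of 1 read. In each library 95.5% to 96.9% of the values up to 50 reads came out whole to within 0.05 reads. Of the columns, 23 were tied to 1 sample each, and 1 KO day 0 column to its group.

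The test was limma (3.58.1, R 4.3.3) on log2(FPKM + 1) for genes that reached 1 FPKM in 3 or more libraries, two-sided, with Benjamini-Hochberg adjustment over all genes of a comparison. The fit held 8 groups and a prior that follows the mean, with 16 residual and 4.02 prior degrees of freedom. Tables, permutation tests and plots were made in Python 3.11.15 (scipy 1.17.1, matplotlib 3.10.9, numpy 2.4.6, pandas 2.3.3). The depth sets the precision, so a gene of 1 to 6 reads is a rough value.

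The members and lists were chosen with earlier results of these data known. The text names the 10 members, up to 3 genes per list with the largest change among those called between KO and WT, and the 5 genes most like Atf3, Jun, Fos and Fosl2.

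Equal replicate numbers paired KO and WT libraries at day 3, where deviations from group means correlated at 0.655, 0.614 and 0.599, and not at days 6 and 9, where at least 1 same-numbered pair was below 0. At day 0 the sample titles and the table's columns number the KO libraries differently. The pairs gave 0.120 and -0.106 by title and 0.120, 0.262 and 0.0456 by column, so neither numbering paired all libraries above 0.1. Title numbers were used. Alternatives were another pseudocount, filter, scaling, voom on recovered reads, compared groups alone, a replicate block and leaving out each library.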

Additional observations from a re-analysis of the deposited data

How the results depend on the processing

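The Atf3 fold change between KO and WT kept its direction in every setting run, and its calls at day 9 and in the mean held in all of them. At day 3 Atf3 was not called under TPM (fold change -2.90), with the compared groups alone (-2.88) or with a replicate block within every day (-2.88), so 0 members were called, and its fold change was -3.28 to -2.54 with 1 library left out (0 to 1 members called). At day 6 it was not called under TPM (-2.38) or with the compared groups alone (-2.84), again 0 members. The block changed no other call of members between KO and WT. At day 9 the count was 2 with equal sums outside the rRNA-type genes, and 1 to 2 with 1 library left out. Interaction counts at days 6 and 9 were 0 to 1 with 1 library left out, and 1 without replicate 3 of both genotypes at day 6, a setting added after the data were seen.

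Under TPM, which moved the median KO minus WT fold change of all genes by 0.22 in the mean of days, the members called against day 0 numbered 1 in WT at day 3, 5 in WT at day 6 and 8 in KO at day 9. With 1 library left out they numbered 2 to 6 in KO at day 3 and 3 to 7 in KO at day 9. The mean-of-days fold change changed sign under TPM for Junb (0.23), Jund (0.15), Fos (0.033), Fosb (0.0773) and Jdp2 (0.14), none called in any setting, and with the block for Jun (-0.0288). Without replicate 3 of day 6 it was 0.13 for Fosb and -0.06004 for Fosl1, and at day 6 it was 0.00833 for Fosb and -0.16 for Fosl1. Leaving out 1 library gave -0.0941 to 1.10 for Fosl1 at day 6, and for the mean of days -0.0213 to 0.21 for Jun, -0.21 to 0.0303 for Junb, -0.37 to 0.0309 for Fosb and -0.0437 to 0.25 for Fosl1. In WT against day 0 the ranges were -0.64 to 0.52 for Fos and -0.11 to 0.97 for Fosb at day 3, and -0.11 to 0.69 for Jund and -0.14 to 1.33 for Fos at day 9. Residual SDs moved under TPM for Atf3 (0.819), Junb (0.718), Fosl1 (0.754), Fosl2 (0.990) and Jdp2 (0.459). The cause was not tested.

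Having 3 libraries per group limits the precision, most for Fos and Fosb with their wide spread. Depth limits Batf3 and KO Atf3, at a few reads per library at day 0. Batf3 has no value under the stricter filter, which it does not pass. A comparison of the members' protein sequences was planned and not run.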
